A study of Mus musculus with 24 samples.

Results

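The genes examined here encode the outer dense fibres and the fibrous sheath of the sperm tail and their close partners: *Odf1*, *Odf2*, *Odf3*, *Odf4*, *Akap3*, *Akap4*, *Fsip1*, *Fsip2*, *Ropn1* and *Smcp*. They were chosen by name, with earlier results of these data known. Of these 10 genes, 9 had a row among the 24456 genes of the count tables and all 9 passed the filter on low counts. *Fsip2* is not analysed here. RNA came from whole testis of wild-type (WT) mice and of homozygous *Atad2* knockout (KO) mice at postnatal days 20, 22, 24 and 26. Each genotype had 4 libraries at day 20 and at day 22, and 2 libraries at day 24 and at day 26. In the KO allele a *lacZ* cassette fuses the first exons of *Atad2* to β-galactosidase, and a Cre recombinase under the CMV promoter, active in all tissues, had removed the *neo* cassette and the next exon. The loss of ATAD2, a bromodomain protein that acts on chromatin, was therefore not limited to germ cells. The labels give no strain, and they do not say that the replicates of a group came from different animals, so p-values measure the spread between these samples.

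In the sperm tail, outer dense fibres run alongside the microtubule axoneme as stiff, elastic cables, and in the principal piece a fibrous sheath of longitudinal columns and circular ribs encloses them. The sheath is a scaffold: AKAP3 and AKAP4 are anchoring proteins that bind the regulatory subunits of protein kinase A, ropporin (ROPN1) docks on them, and glycolytic enzymes of the sperm sit on the same scaffold. Genes for these structures are transcribed mainly in haploid spermatids, and much of the mRNA is stored and translated later, as the tail is built. Day 20 to day 26 is the stretch of the first spermatogenic wave in which spermatids appear and accumulate in the testis. Because bulk RNA was measured, fewer cells of a type and less RNA per cell cannot be told apart.

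Assigned counts per library ran from 10709667 to 19491935, and levels are given as CPM, a gene's counts relative to the total of its library after TMM scaling between libraries. *Atad2* was lower in every KO library than in every WT library of the same day. At day 20 it stood between 30.8 and 37.1 CPM in KO and between 76.3 and 171 CPM in WT (up to 94.0 CPM without WT_d20_2), and the part of its transcript before the deleted exon can still be counted in KO. The shallowest library, WT_d20_2, stood apart, with 13.7% of its pairs aligned to several places and 3.26% of its counts in mitochondrial ribosomal RNA. Markers of pachytene spermatocytes (summed level of 7 genes, 1177 to 3104 CPM) and of Sertoli cells (7 genes, 926 to 2181 CPM) were present in all groups. The protocol in the labels speaks of purified spermatogenic cell fractions, while the tissue is given as testis. Epididymal markers varied widely within groups. The summed level of 4 genes ran from 2.0 to 277 CPM in the WT libraries and from 3.32 to 54.3 CPM in the KO libraries of day 20. Their part in the results was not tested.

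RefSeq windows of 300 bases (build GRCm38.p6), most of each before the start of transcription and the rest after it, were found for 7 of the 9 measured genes, some with several starts. The windows of the fibrous sheath anchors *Akap3* and *Akap4* and of *Smcp*, the sperm mitochondria-associated cysteine-rich protein gene, are shown because these genes rose together in the data and their windows share letters. *Akap3* lies at chr6:126853098-126874308 on the plus strand of mm10, *Akap4* at chrX:7067519-7078609 on the plus strand and *Smcp* at chr3:92583867-92588997 on the minus strand. In the lines below, written 5′ to 3′ on the strand of the gene, capitals mark the octamer TGATGTCA. The windows are at chr6:126852848-126853147 (plus), chrX:7067265-7067564 (plus) and chr3:92589024-92589323 (minus). RefSeq and GENCODE, the source of the gene positions, place the start of *Smcp* differently, so that its whole window lies before the gene as GENCODE gives it.
*Akap3*: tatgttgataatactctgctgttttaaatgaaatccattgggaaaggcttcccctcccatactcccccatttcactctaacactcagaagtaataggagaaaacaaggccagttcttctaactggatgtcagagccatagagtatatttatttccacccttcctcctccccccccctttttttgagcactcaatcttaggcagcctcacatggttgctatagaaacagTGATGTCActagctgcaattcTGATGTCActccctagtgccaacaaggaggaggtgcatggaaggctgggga
*Akap4*: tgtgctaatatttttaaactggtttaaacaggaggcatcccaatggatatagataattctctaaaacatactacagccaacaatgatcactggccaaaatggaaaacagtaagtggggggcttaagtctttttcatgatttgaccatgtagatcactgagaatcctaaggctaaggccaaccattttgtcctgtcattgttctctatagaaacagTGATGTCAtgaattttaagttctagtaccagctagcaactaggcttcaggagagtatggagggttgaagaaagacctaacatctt
*Smcp*: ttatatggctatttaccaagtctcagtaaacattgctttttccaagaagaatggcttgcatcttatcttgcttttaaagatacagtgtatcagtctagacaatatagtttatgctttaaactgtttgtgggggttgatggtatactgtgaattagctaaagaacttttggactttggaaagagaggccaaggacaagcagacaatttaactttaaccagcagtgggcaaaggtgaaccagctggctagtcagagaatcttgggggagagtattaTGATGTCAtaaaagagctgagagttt

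The octamer was chosen after the windows had been read. It differs from the palindromic cAMP response element TGACGTCA, the site of the CREM family of testis regulators, by 1 base (C4T, counted from the first base of the element). On either strand it was in 3 of the 11 windows of the measured genes and in 3.62% of all 32851 RefSeq windows. In *Akap3* it begins at -22 and -1 from the start, in *Akap4* at -35 and in *Smcp* at position 25, where the start itself is position 1. *Akap3* and *Akap4* also share the unbroken run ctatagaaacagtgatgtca of 20 bases, which begins at -34 in the window of *Akap3* and at -47 in that of *Akap4* and ends with the octamer. Over the 48 pairs of windows of different measured genes the longest shared run had a median of 9 bases, and the run of the pair of anchors was the longest, with 14 bases next. These matches describe letters and not binding.

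The palindromic element TGACGTCA itself was in 0 of the 11 windows, and in 1.79% of all windows. Its shorter core TGACG, which is part of the full element, was in windows of *Odf2* (20.8% of all windows hold it). The RFX core GTTGCC was found in *Odf3* at -65 (12.5% of all windows), the SOX core ATTGTT in *Akap4* at -172 and -55 (10.7%), the MYB core TAACGG in *Odf2* (2.76%), CCAAT in *Akap3*, *Akap4* and *Odf2* (37.4%), and TATAAA in none (13.6%). Each was searched on both strands.

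The windows differed more in their CG dinucleotides. The median of all RefSeq windows was 7 CG. *Akap3*, *Smcp* and the first *Akap4* window held 0, the second *Akap4* window held 1, *Odf3* and *Ropn1* held 2 and *Odf4* held 3. Windows with 3 CG or fewer made up 31.4% of all. The 4 windows of *Odf2* held between 26 and 43, a density that 16.9% of windows reach. *Odf4*, with only 3 CG, was like *Odf2* already present at day 20, at a mean of 73.7 CPM in WT. *Odf3* (chr7:140847805-140851018, plus strand) and *Odf2* (chr2:29889221-29931746, plus strand) are shown as the contrast between a gene at the floor of detection at day 20 and one already abundant. Their windows are at chr7:140847666-140847965 and chr2:29889470-29889769, both on the plus strand, and capitals mark CG.
*Odf3*: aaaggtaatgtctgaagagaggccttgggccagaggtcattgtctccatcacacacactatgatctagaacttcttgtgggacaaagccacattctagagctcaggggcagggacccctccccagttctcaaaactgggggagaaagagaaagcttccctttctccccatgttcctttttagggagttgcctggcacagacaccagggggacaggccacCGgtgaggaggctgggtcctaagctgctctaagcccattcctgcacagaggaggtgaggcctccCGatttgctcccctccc
*Odf2*: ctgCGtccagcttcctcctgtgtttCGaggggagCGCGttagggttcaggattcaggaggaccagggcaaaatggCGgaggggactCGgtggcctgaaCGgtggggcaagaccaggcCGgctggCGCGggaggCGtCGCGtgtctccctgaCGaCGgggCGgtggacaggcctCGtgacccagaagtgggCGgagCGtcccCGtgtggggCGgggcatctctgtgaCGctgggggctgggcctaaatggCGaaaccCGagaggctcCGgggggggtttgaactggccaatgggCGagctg

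*Odf1* encodes the major outer dense fibre protein and lies at chr15:38219203-38226735 on the plus strand. At day 20 the 4 WT libraries held 0.943, 0.316, 0.231 and 1.87 CPM, and the 4 KO libraries 5.15, 1.90, 10.5 and 20.2 CPM. Every KO library was above every WT library, by a narrow margin between the lowest KO and the highest WT value. By day 26 the level was 175 and 152 CPM in WT and 207 and 212 CPM in KO.

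*Odf2* encodes the other main fibre protein, which is also a component of the centriole in dividing cells. It was abundant from the start. At day 20 the WT libraries held 488, 189, 372 and 409.8 CPM and the KO libraries 429, 374, 451 and 491 CPM, so the groups overlapped, and the low WT value was that of WT_d20_2. It reached 1254.5 and 1364 CPM in WT and 1589 and 1561 CPM in KO at day 26, where the groups were apart.

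*Odf3* encodes a sperm tail protein named for the outer dense fibres. It was the member nearest to absence in young testis: 3 of the 4 WT libraries of day 20 had 0 counts and WT_d20_4 had 2, which is 0.144 CPM. The KO libraries of that day had 10, 1, 34 and 71 counts, or 0.725, 0.0654, 2.24 and 4.81 CPM, so the lowest KO library lay below the highest WT library. At day 26 its level was 40.6 and 40.5 CPM in WT and 47.5 and 57.0 CPM in KO. Per kilobase of exon it was among the lowest members there as well.

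*Odf4* (chr11:68921835-68927081, minus strand) encodes a further fibre-associated protein of the testis, and it behaved unlike the others. It was already at 87.6, 86.6, 55.5 and 64.9 CPM in WT and at 87.3, 74.6, 72.8 and 70.0 CPM in KO at day 20. The WT group mean at day 20 was 75.4% of that at day 26, the flattest course of the 9 genes. In the 2 KO libraries of day 26 it stood at 151 and 159 CPM against 92.4 and 103 CPM in WT, the largest fold change between the genotypes among the 9 genes at that day.

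*Akap3*, the anchoring protein that is built into the sheath from its early assembly, was measured in every library. At day 20 the WT libraries held 5.97, 2.32, 4.56 and 11.2 CPM and the KO libraries 17.6, 9.87, 42.8 and 69.1 CPM. KO_d20_2 lay below the highest WT library and the other 3 KO libraries above it. At day 26 the level was 534 and 553 CPM in WT and 566 and 604 CPM in KO.

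*Akap4*, on the X chromosome, encodes the most abundant protein of the fibrous sheath. At day 20 the WT libraries held 0.550, 0.842, 0.462 and 2.59 CPM and the KO libraries 7.03, 2.42, 20.4 and 40.1 CPM, with KO_d20_2 again just below the highest WT library. At day 22 the groups were apart, at 37.9, 18.4, 25.6 and 23.4 CPM in WT and 38.5, 193, 89.9 and 39.1 CPM in KO. At day 26 it reached 528 and 475 CPM in WT and 545 and 568 CPM in KO.

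*Ropn1* (chr16:34649921-34678618, plus strand), the ropporin that docks on the anchors, gave 0.157, 0.316, 0.0578 and 0.792 CPM in WT and 1.89, 0.915, 6.73 and 11.4 CPM in KO at day 20. All KO libraries were above all WT libraries. These WT values rest on 2, 3, 1 and 11 counts. At day 26 *Ropn1* was not higher in KO, with 107.9 and 108 CPM there and 124 and 108 CPM in WT.

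*Fsip1* (chr2:118130424-118256966, minus strand) encodes a protein that interacts with the fibrous sheath. Its exons overlap those of *Gm29232* on the same strand, and its counts are uncertain to that extent. It was present early, at 17.2, 17.3, 10.9 and 14.2 CPM in WT and 20.3, 19.3, 22.1 and 25.7 CPM in KO at day 20, with all KO libraries above all WT libraries. At day 26 it stood at 56.3 and 77.5 CPM in WT and 67.4 and 74.0 CPM in KO, which overlapped.

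*Smcp* encodes a cysteine-rich protein of the capsule around the mitochondria of the midpiece, next to the outer dense fibres. At day 20 the WT libraries held 0.0786, 0.105, 0.693 and 2.45 CPM and the KO libraries 3.99, 1.31, 15.7 and 33.0 CPM, and KO_d20_2 lay below WT_d20_4. At day 26 it was at 357 and 339.7 CPM in WT and 390.2 and 508 CPM in KO.

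**Figure D1:**
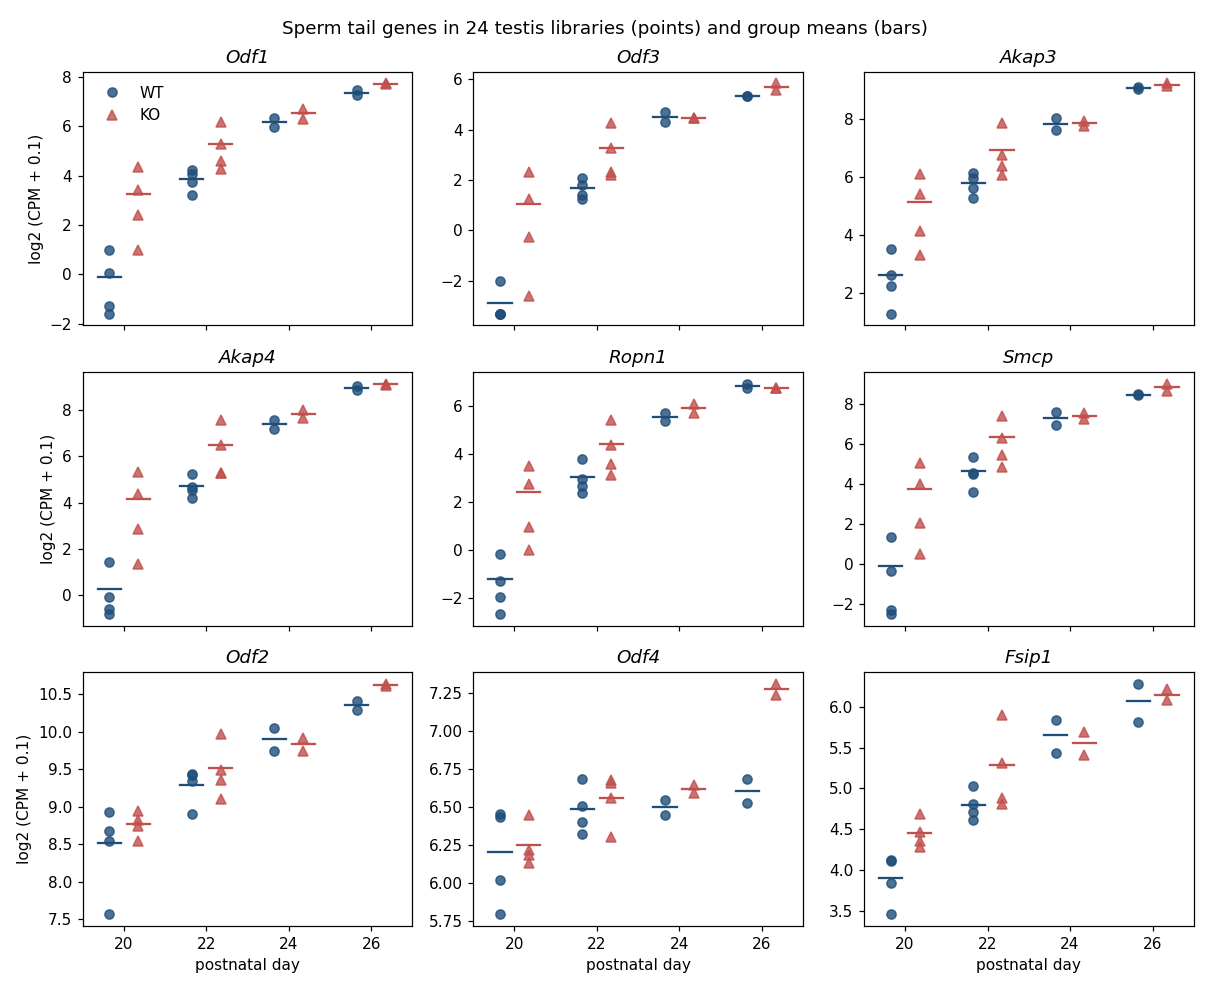
Level of each of the 9 genes as log2 (CPM + 0.1) in the 24 libraries by postnatal day, WT as circles and KO as triangles, with bars for the group means. In *Odf1*, *Odf3*, *Akap3*, *Akap4*, *Ropn1* and *Smcp* the KO points of day 20 spread upwards from the WT points, and by days 24 and 26 the genotypes lie close together, while *Odf4* is nearly level until the KO points of day 26.

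All 9 genes rose from day 20 to day 26 in both genotypes, by very unequal amounts. A gene was called changed when edgeR's quasi-likelihood test gave an adjusted p-value under 0.05 over all 17170 genes tested. In WT the log2 fold change was 9.79 for *Odf3*, 8.81 for *Akap4*, 8.61 for *Smcp*, 8.46 for *Ropn1*, 7.58 for *Odf1* and 6.47 for *Akap3*. It was 2.17 for *Fsip1*, 1.84 for *Odf2* and 0.41 for *Odf4* (adjusted p = 0.0426 by edgeR). In KO the range was 1.03 (*Odf4*) to 5.05 (*Smcp*). Calls upward made up 24.4% of all genes in WT and 27.2% in KO. The call of *Odf4* in WT did not hold in 13 of 24 fits with 1 library left out.

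As the WT counts of *Odf3* at day 20 were 2 in all, its fitted value depends on the prior count. The ratio of pooled rates between day 26 and day 20 in WT was 1083, with an exact 95% counting interval of 299 to 8951. The group means at day 20 in WT were 0.0888% (*Odf3*), 0.222% (*Akap4*), 0.239% (*Smcp*), 0.285% (*Ropn1*), 0.514% (*Odf1*) and 1.11% (*Akap3*) of those at day 26. For *Fsip1* and *Odf2* they were 22.2% and 27.9%. WT_d20_4 was the highest WT library of day 20 for the 6 genes from *Odf3* to *Akap3* and raised their means. The median of *Smcp* there was 0.399 CPM against a mean of 0.831 CPM, and that of *Odf3* was 0 CPM. The genes thus fell into 6 with a steep course and 3 already present (*Odf2*, *Odf4*, *Fsip1*), a grouping made after the values were seen.

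Of the 3 steps in WT, that from day 20 to day 22 had the highest estimate for each of the 9 genes, from 0.29 (*Odf4*) and 0.78 (*Odf2*) to 6.08 (*Odf3*) on the log2 scale. From day 20 to day 22 all but *Odf4* were called higher in WT (12.9% of all genes were), and the same 8 in KO (7.37%). The KO count fell to 0 without KO_d20_1, KO_d20_2 or KO_d22_2 and to 3 without KO_d20_3. From day 22 to day 24 the WT calls were *Akap3*, *Akap4*, *Fsip1*, *Odf1*, *Odf3* and *Ropn1* (5.88% of all genes). The WT count fell to 0 without WT_d24_1 and to 1 without WT_d22_2, WT_d22_3, WT_d22_4 or WT_d24_2. In KO 0 of 9 were called by edgeR or by DESeq2 at that step, with 2 at an unadjusted p under 0.05 in edgeR. Of all 17170 genes 0.402% were called higher and 1530 had an unadjusted p under 0.05. From day 24 to day 26 edgeR called 0 in WT (0 at an unadjusted p under 0.05, 0 by DESeq2, background 0.262%) and 0 in KO (3 at an unadjusted p under 0.05, as had 3459 of all 17170 genes, 1 by DESeq2, background of calls 0.0116%), although all 9 estimates were above 0 in both genotypes. The largest of these were 1.58 (SE 0.84) for *Akap4* in WT and 1.42 (SE 0.95) for *Smcp* in KO, with 2 libraries a group.

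The order of the levels changed along the way. Per kilobase of exon, mean levels in WT at day 20 ran from *Odf4* (63.2 CPM per kb) and *Odf2* (36.8), whose ranges overlapped, to *Fsip1* (5.11) and then *Akap3* (1.91), *Smcp* (0.91), *Odf1* (0.76), *Akap4* (0.37), *Ropn1* (0.25) and *Odf3* (0.017), each of which overlapped with its neighbour. At day 26 in WT *Smcp* led at 382 CPM per kb, apart from *Akap3* (172), *Akap4* (166), *Odf1* (148) and *Odf2* (132), which overlapped from one to the next. *Ropn1* (86.2) and *Odf4* (83.7) overlapped, and so did *Fsip1* (23.0) and *Odf3* (19.6). In KO at day 26 *Smcp* was again the highest at 492 CPM per kb, followed by *Odf1* (189.7), *Akap3* (186) and *Akap4* (184), which overlapped.

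The balance of the pair of anchors shifted with age. In WT the number of *Akap4* counts per *Akap3* count was 0.0921 to 0.364 at day 20 and 0.407 to 0.533 at day 22. It was 0.72 to 0.736 at day 24 and 0.859 to 0.988 at day 26. In KO it was 0.245 to 0.581, 0.469 to 0.828, 0.908 to 1.04 and 0.939 to 0.962 at the same days. The KO median was above the WT median at each of the 4 days, by less at day 26 (0.951 against 0.924) than at day 20 (0.438 against 0.166), and the ranges overlapped at days 20, 22 and 26. The highest WT ratio of day 20 was that of WT_d20_2, the library that stood apart, and rests on 8 *Akap4* and 22 *Akap3* counts. Without it the ranges of day 20 were apart. No test was made of the ratio.

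The main comparison of the study sets KO against WT at each day. At day 20 edgeR called 6 of the 9 genes, all higher in KO, while 2.98% of all genes tested were called higher. The log2 fold changes were 3.47 (SE 0.71, adjusted p = 0.0114) for *Odf1*, 3.97 (SE 0.82, adjusted p = 0.0118) for *Akap4*, 2.51 (SE 0.54, adjusted p = 0.0144) for *Akap3* and 4.0 (SE 0.90, adjusted p = 0.017) for *Ropn1*. For *Odf3* the fitted value was 5.43 (SE 1.27, adjusted p = 0.0217), and the ratio of its pooled rates was 52.5 with an exact counting interval of 14.2 to 439. *Smcp* followed with 3.92 (SE 0.97, adjusted p = 0.0299, and 0.0506 without the filter on low counts). The 3 genes already present gave 0.56 (*Fsip1*, 95% interval 0.13 to 0.99, adjusted p = 0.195), 0.26 (*Odf2*, -0.19 to 0.70, adjusted p = 0.719) and 0.05 (*Odf4*, -0.22 to 0.32, adjusted p = 0.937). The median over the 9 genes was 3.47, against 0.0046 over all genes tested. Every KO library was above every WT library for *Odf1*, *Fsip1* and *Ropn1*, 3 of 9 genes, against 3.03% of all genes.

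These calls lay close to the threshold and moved with single libraries. The count at day 20 was 0 without KO_d20_4, without WT_d20_2 or without WT_d20_3, 1 without WT_d20_1 and 3 without KO_d20_3, and 0 of the 8 genes that could be tested were called in a fit of day 20 alone (6 had an unadjusted p under 0.05). Over the 24 fits that each left out 1 library and the fit of day 20 alone, the log2 fold changes of the 6 genes lay between 1.94 (*Akap3* without KO_d20_4) and 7.90 (*Odf3* without WT_d20_4). In the fit without WT_d20_2, the library that stood apart, 7 of the 9 genes had an unadjusted p under 0.05. In the full fit 7 of the 9 had, as had 2141 of all 17170 genes.

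At day 22 the estimates were smaller, and edgeR and DESeq2 each called 0 of 9 at an adjusted p under 0.05, with 7 at an unadjusted p under 0.05. Of all 17170 genes 2.51% were called and 2505 had an unadjusted p under 0.05. The log2 fold changes were 1.78 (SE 0.61) for *Akap4*, 1.70 (SE 0.69) for *Smcp*, 1.62 (SE 0.56) for *Odf3*, 1.41 (SE 0.51) for *Odf1*, 1.37 (SE 0.55) for *Ropn1* and 1.15 (SE 0.48) for *Akap3*, and the smallest adjusted p was 0.142. KO_d22_2 was the highest library of the day for all 6 of these genes. Without it 0 of the 9 genes had an unadjusted p under 0.05, and the log2 fold change was 1.08 for *Akap4*, 1.03 for *Smcp*, 1.02 for *Odf3*, 0.91 for *Odf1*, 0.75 for *Ropn1* and 0.64 for *Akap3*. Without WT_d22_2 or without WT_d22_4 the 7 genes at an unadjusted p under 0.05 became 3. Groups were apart for *Odf1*, *Odf3* and *Akap4* (3 of 9 genes, 3.64% of all genes).

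At day 24 edgeR and DESeq2 called 0 of 9 (0 at an unadjusted p under 0.05, background 0.0874%), with log2 fold changes between -0.10 (*Fsip1*) and 0.44 (*Akap4*). With 2 libraries per genotype, and the spread of each gene estimated over all 8 groups, the intervals were wide. That of *Akap4* ran from -1.28 to 2.17 and that of *Odf2* from -0.70 to 0.55. Groups were apart with KO higher for *Odf4* and *Akap4*, 2 of 9 genes, while 22.6% of all genes were so. At this day the summed level of 7 elongating spermatid markers was 455 and 1168 CPM in KO and 175 and 192 CPM in WT, and its part in the results was not tested.

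At day 26 edgeR again called 0 of 9 (background 0.0466%). *Odf4* alone of the 9 had an unadjusted p under 0.05, as had 1979 of all 17170 genes, a share close to that of the members. Its log2 fold change of 0.67 (SE 0.19, 95% interval 0.28 to 1.05) had an adjusted p of 0.182, while DESeq2 called it at an adjusted p of 0.0383 and a fit of day 26 alone at 0.00324. The fit of day 26 alone also called *Odf1*, and in it 5 of the 9 genes had an unadjusted p under 0.05 by edgeR. In the full fit the 8 genes other than *Odf4* had log2 fold changes between -0.10 (*Ropn1*) and 0.37 (*Odf3* and *Smcp*). The 2 KO libraries were above the 2 WT libraries for 7 of 9 genes, all except *Fsip1* and *Ropn1*, against 27.8% of all genes.

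**Figure D2:**
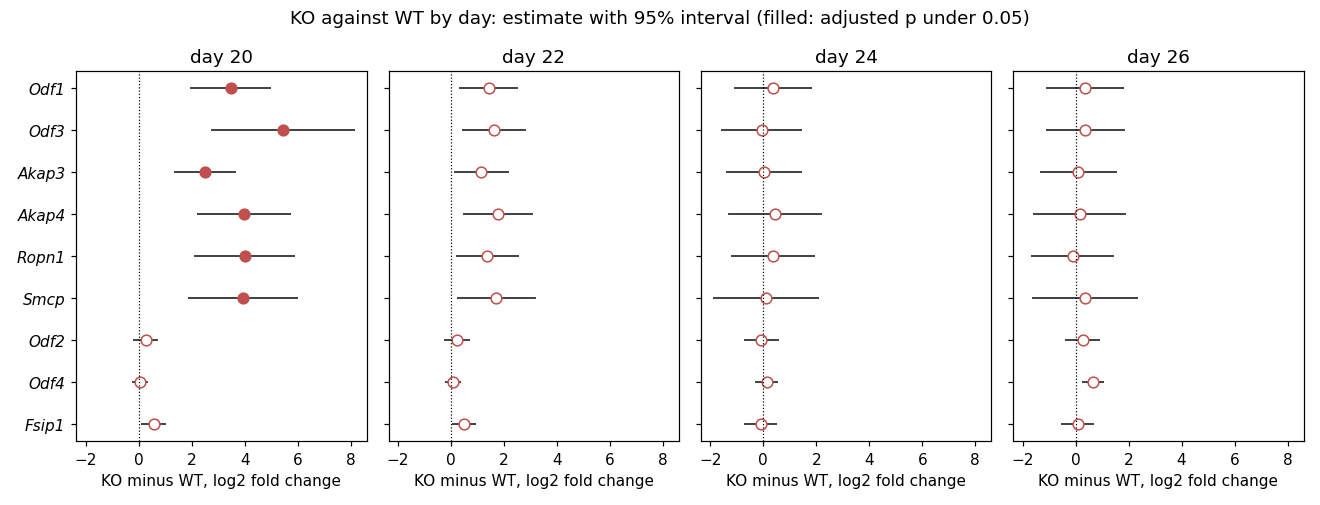
Log2 fold change of KO against WT for each gene at each day from 1 edgeR fit over all libraries, with 95% intervals, filled where the adjusted p-value is under 0.05. The 6 steep genes lie between 2.51 and 5.43 at day 20, between 1.15 and 1.78 at day 22 and between -0.10 and 0.44 at days 24 and 26, and *Odf2*, *Odf4* and *Fsip1* lie between -0.10 and 0.67 at all 4 days.

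When the KO effect was averaged over the 4 days, the calls were 4 genes, all higher in KO: *Odf3* (log2 fold change 1.84, adjusted p = 0.0247), *Akap4* (1.59, adjusted p = 0.0255), *Ropn1* (1.41, adjusted p = 0.0341) and *Odf1* (1.40, adjusted p = 0.021). *Smcp* (1.52, adjusted p = 0.0501) and *Akap3* (0.95, adjusted p = 0.061) were just outside the threshold. Calls upward made up 3.52% of all genes. The count fell to 0 without KO_d24_1, WT_d24_2, WT_d26_1 or WT_d26_2, to 1 without KO_d26_2 and to 2 without WT_d20_3, and it was 7 with DESeq2. In the same comparison edgeR called 7 of 7 elongating spermatid markers (3 by DESeq2), 5 of 8 round spermatid markers (7 by DESeq2) and 1 of 6 Leydig cell markers higher in KO and 2 of 5 peritubular markers lower, and their part in the result was not tested. A joint edgeR test of whether the KO effect differed between the days called 0 of 9 genes, with unadjusted p under 0.05 for the 6 steep genes (0.0121 for *Odf3* to 0.0471 for *Smcp*). Over all 17170 genes 0.00582% were called by this test and 1556 had an unadjusted p under 0.05. The effect of day 20 was not tested against that of day 26 alone. The daily comparisons share no libraries with each other, but the mean over days contains them all.

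The libraries also differed in the balance of spermatid and spermatocyte marker RNA. A stage score was computed as the mean centred log2 CPM of 8 round spermatid markers minus that of 7 pachytene markers. At day 20 it was -3.54, -2.98, -3.61 and -2.29 in WT and -1.44, -2.48, -0.27 and 0.26 in KO. At day 22 it was -0.03, -0.41, -0.16 and -0.40 in WT and -0.04, 1.49, 0.89 and -0.04 in KO. At day 24 the genotypes overlapped (1.72 and 1.48 in WT, 1.62 and 1.61 in KO), and at day 26 the order was turned, with 2.31 and 2.26 in WT above 2.03 and 2.04 in KO. The markers behind it moved with the members at day 20: 7 of the 8 round spermatid genes were called higher in KO (*Spata16* was not), with a median log2 fold change of 3.09 over the 8. Their summed levels were 228 to 320 CPM in KO and 169 to 251 CPM in WT, of which *Spata16* took most, with means of 234 CPM in KO and 219.9 CPM in WT. Of the 7 pachytene markers edgeR called 0 at day 20 (1 at an unadjusted p under 0.05, 1 by DESeq2). Markers of elongating spermatids were at 0.32 to 2.81 CPM in WT and 0.52 to 31.7 CPM in KO at day 20 (7 genes summed), and *H1fnt* was at 0 in all WT libraries of that day. Of these 7 genes edgeR called 0 at day 20 (2 at an unadjusted p under 0.05, 2 by DESeq2) and 6 at day 22 (2 by DESeq2).

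Within groups of 4 libraries the steep genes followed this score at its high end and less evenly at its low end. The library with the highest score was the highest for all 6 of them in WT and KO at day 20 and in WT and KO at day 22. The library with the lowest score was the lowest for all 6 in KO at day 20 (KO_d20_2) and in WT at day 22 (WT_d22_2), but for 3 of 6 in WT at day 20 (WT_d20_3) and for 1 of 6 in KO at day 22 (KO_d22_4). Some KO libraries were set beside WT libraries of a later day. KO_d20_3, at -0.27, lay within the scores of the WT libraries of day 22 (-0.41 to -0.03), and of its 6 values 5 were within the range of those libraries and 1 below. KO_d20_4, at 0.26, was above those scores, and 3 of its 6 values were within their range and 3 above. KO_d22_2, at 1.49, lay within the scores of the WT libraries of day 24 (1.48 to 1.72), with 4 of 6 values within their range, 1 above and 1 below. These sets were chosen after the scores were seen.

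With the stage score as a covariate in the edgeR fit, 0 of the 9 genes were called at day 20 (1 had an unadjusted p under 0.05), and the log2 fold changes ran from -0.18 (*Smcp*) to 1.59 (*Odf3*). At days 22, 24 and 26 that fit called 0 genes, with 0, 1 and 5 of the 9 at an unadjusted p under 0.05. Without the covariate these numbers were 7, 0 and 1. At day 26 its log2 fold changes were all above 0, from 0.15 to 0.79. Over the mean of the 4 days it called 1 gene, *Akap4*, and 4 had an unadjusted p under 0.05 (8 without the covariate). The score shares its libraries and its age course with the members. Whether a difference at day 20 reflects the advance of the wave or the level in cells at a given step cannot be told apart in these data.

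**Figure D3:**
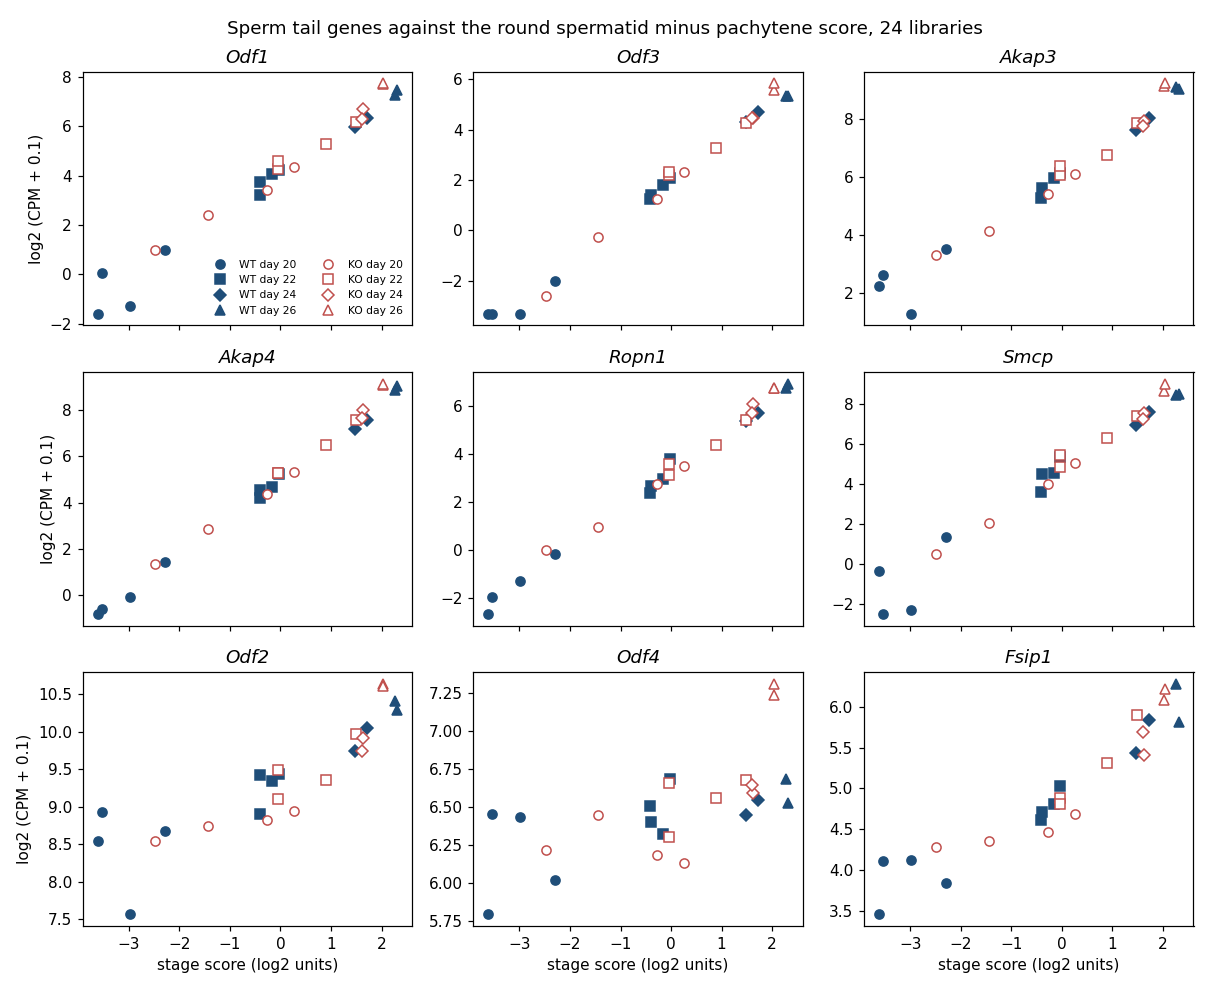
Level of each gene as log2 (CPM + 0.1) against the stage score of the same library, WT filled and KO open, with a symbol for each day. For the 6 steep genes the scores of 3 KO libraries of day 20 lie between or within those of the WT libraries of days 20 and 22 and that of KO_d20_4 lies beyond them, while *Odf4* shows little slope and its 2 KO libraries of day 26 stand above the rest.

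Other marker lists were read beside these results. Of 4 genes of ciliated cells of the excurrent ducts, 3 were tested and 2 were called higher in KO at day 20: *Foxj1*, a regulator of motile cilia that germ cells also express, rose from a mean of 3.08 to 16.1 CPM, and *Deup1* (listed as *Ccdc67*), a gene of centriole amplification, from 10.7 to 22.1 CPM. *Mcidas*, a defining gene of multiciliated cells, was at or below 3 counts in every library of both groups at day 20. Leydig cell markers gave 260 to 376 CPM in WT and 277 to 682 CPM in KO at day 20 (6 genes, 0 called by edgeR, 3 at an unadjusted p under 0.05, 1 by DESeq2). Likewise 0 of 8 spermatogonial markers (1 at an unadjusted p under 0.05, 0 by DESeq2), 0 of 7 Sertoli cell markers (1 and 0) and 0 of 5 peritubular markers (2 and 1) were called by edgeR at day 20. The part of these cells in the results was not tested.

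Genes of the same structures were taken from lists written with earlier results of these data known. Among 9 partners in the fibrous sheath, 5 were called higher in KO at day 20 (2.98% of all genes were), and the median log2 fold change was 2.31. They were *Gapdhs* (4.45, SE 0.90, adjusted p = 0.011), the sperm form of the glycolytic enzyme; *Fscb* (4.05, SE 0.82, adjusted p = 0.0113), a calcium-binding sheath protein; *Akap14* (3.31), *Aldoart1* (3.04), a germ cell aldolase, and *Cabyr* (2.31). In WT *Gapdhs* had a mean of 0.377 CPM at day 20 and 228 CPM at day 26. *Ropn1l* (0.17), *Spa17* (-0.11), *Ldhc* (0.31) and *Rhpn1* (0.29) were not called, and *Ropn1l*, *Spa17* and *Ldhc* were already at 174, 63.4 and 1068 CPM in WT at day 20. Over the mean of the 4 days *Gapdhs* (1.64), *Fscb* (1.46) and *Aldoart1* (0.99) were called.

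Of 10 relatives and partners of the outer dense fibres, 9 were tested and 4 were called higher in KO at day 20, with a median log2 fold change of 0.13. *Odf3l1*, a paralogue of *Odf3*, gave 4.03 (SE 0.85, adjusted p = 0.0131). *Oaz3*, the antizyme of haploid germ cells, gave 3.41 (SE 0.76, adjusted p = 0.0165). *Tssk4*, a testis-specific kinase, gave 2.46 (SE 0.57, adjusted p = 0.0197) and *Spag4*, a SUN-domain protein, 1.78 (SE 0.43, adjusted p = 0.0244). The same 4 were the calls over the mean of the 4 days. *Odf2l*, a paralogue of *Odf2*, was at 63.2 and 60.1 CPM in WT and KO at day 20 and at 54.4 and 63.8 CPM at day 26. The voltage-dependent anion channels *Vdac2* (0.11) and *Vdac3* (0.13) were not called. Nor was *Odf3b* (-0.34), which was low at day 20, with means of 0.129 CPM in WT and 0.10 CPM in KO. It rose in WT to a mean of 3.99 CPM at day 26.

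Of 10 genes of the mitochondrial sheath and annulus, neighbours of *Smcp*, 3 were called higher in KO at day 20, with a median of 0.34. They were *Armc12* (4.18, SE 0.80, adjusted p = 0.00922), *Tbc1d21* (3.79, SE 0.97, adjusted p = 0.0362) and *Spata19* (3.39, SE 0.83, adjusted p = 0.0269). The same 3 were the calls over the mean of the 4 days. *Gpx4*, the selenoenzyme that hardens the mitochondrial capsule, gave 0.31 and was at 210 CPM in WT at day 20. *Gk2*, *Gykl1* and *Slc25a31* were also above 100 CPM there and were not called. *Septin4* (0.27) was not called either, and it rose in WT from a mean of 3.18 CPM at day 20 to 27.4 CPM at day 26.

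The 6 subunits of protein kinase A, which AKAP3 and AKAP4 anchor, had 0 calls at day 20 by edgeR or DESeq2 and 0 at an unadjusted p under 0.05, with a median of 0.033. Their levels in WT at day 20 ran from 2.34 CPM (*Prkar1b*) to 253 CPM (*Prkar1a*). Over the mean of the 4 days *Prkar2b*, a regulatory subunit, was called lower in KO (log2 fold change -0.55, SE 0.12, adjusted p = 0.0143). *Prkar2a*, the regulatory subunit of the sperm tail, was not called there (0.13) and rose in WT from a mean of 24.0 CPM at day 20 to 50.9 CPM at day 26, a log2 fold change of 1.08 (SE 0.19, edgeR adjusted p = 7.70e-05). At day 22 edgeR called 0 genes of any of the 4 lists. At an unadjusted p under 0.05 there were 3 of the sheath partners, 5 of the fibre relatives, 4 of the mitochondrial sheath genes and 0 of the subunits, and DESeq2 called 1 of the fibre relatives. From day 20 to day 26 in WT, 9 of 9, 6 of 9, 9 of 10 and 3 of 6 genes of the lists were called higher, in the same order, against 24.4% of all genes.

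**Figure D4:**
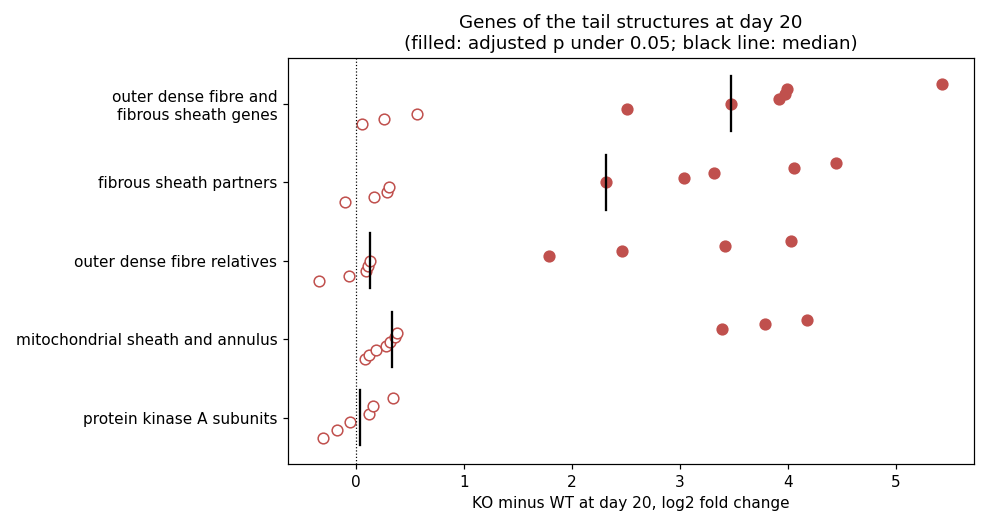
Log2 fold change of KO against WT at day 20 for each tested gene of the member set and of 4 lists of tail genes, filled where the adjusted p-value is under 0.05, with a black line at each list's median. Points lie either between -0.34 and 0.56 or at 1.78 and above, in the member set and in each list except the subunits of protein kinase A, whose 6 genes lie between -0.30 and 0.34.

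The 9 genes were compared with all others by their course over the 24 libraries, as Pearson r of centred log2 CPM with their mean. Outside the members and lists the nearest were *Erich3* (r = 0.998), *BC089491* (0.998), *Kif2b* (0.998), *Fam71d* (0.998) and *Tssk2* (0.997), a kinase gene of spermatids. *Erich3* went from 0.462 CPM in WT and 6.25 CPM in KO at day 20 to 124 and 133 CPM at day 26. *Kif2b* went from 2.03 and 18.5 CPM to 338 and 373 CPM. Many genes share this course: of 17073 genes compared, 1173 had r of at least 0.9 and 101 at least 0.99. Between members, r was 0.982 to 0.998 over the 15 pairs of steep genes, and *Akap4* and *Ropn1* were the closest pair. *Odf4* was the farthest from the others, with r between 0.628 (*Smcp*) and 0.785 (*Fsip1*). These values describe libraries that share ages and are no test.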

How the data were processed

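The authors deposited 1 table of raw read counts per gene for each library, made from ribosomal RNA-depleted stranded libraries (paired-end, Illumina) by aligning to mm10 with STAR 2.7.11b and counting exons with HTSeq (reverse strand, strict intersection, pairs with several alignments dropped). Per the submitters' notes DESeq2 1.22.2 was used downstream. The annotation version is not given in the sources used here. Rows that name no gene, 53.7% to 69.0% of the pairs in a table, were left out.

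From these counts, genes passing edgeR's filterByExpr (minimum count 10) were scaled by TMM and fitted with edgeR 4.0.16 (quasi-likelihood, robust, R 4.3.3, limma 3.58.1) over all 24 libraries, with 8 groups of genotype and day. P-values were adjusted by Benjamini-Hochberg over 17170 genes and called under 0.05. The log2 CPM values for scores and correlations used a prior count of 2. Standard errors were the fold change over the square root of F. The code was tested on simulated data. Alternatives were DESeq2 1.42.0, other size factors, no filter, a replicate block, a stage covariate, single-day fits and leaving out each library. Exact counting intervals were taken at 95% and cover counting error only. Gene positions are from GENCODE M21 (mm10) and promoter windows from RefSeq (GRCm38.p6).

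The genes named were the members, called genes of the fixed lists, some uncalled ones, some cell type markers and the 5 genes with the most similar course. Members and lists were chosen with earlier results of these data known. The labels give 4 replicates per genotype at day 20 while the study's methods speak of fewer. Which library is in excess is not given, and all were used.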

Additional observations from a re-analysis of the deposited data

Results flagged for a closer look

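In a scan of the 36 sets of 4 libraries (9 genes, both genotypes, days 20 and 22), 1 library lay far from the other 3 of its set by Dixon's test at the 95% level. It was WT_d20_4 for *Odf3*, at 0.144 CPM while the other 3 WT libraries of day 20 were at 0. The value rests on 2 counts, and with the other 3 at 0 any count above 0 would have raised the flag. Chance gives about 1 in 20 such sets, or 1.8 of 36, a rate that does not hold for a set with 3 values of 0. WT_d20_4 was also the highest of the WT libraries of day 20 for the other 5 steep genes and had the highest stage score of its group.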

How the results depend on the processing

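The age comparisons between day 26 and day 20 and between day 22 and day 20 in WT kept their member counts within 1.5 times under every alternative run. Calls of KO against WT stayed at 0 at days 22 and 24 in every alternative fit with all libraries of those days. The other counts of KO against WT did not hold under every alternative. At day 20, 6 genes were called in the full edgeR fit, 6 with DESeq2, 6 with other size factors and 5 without the filter on low counts. The count was 3 with the replicate block, 0 with the stage score as covariate and 0 of 8 in the fit of day 20 alone. At day 26 the count of 0 became 1 with DESeq2 and 2 in the fit of day 26 alone. Over the mean of the days the count of 4 became 1 with the stage score, 5 with other size factors and 7 with DESeq2. It was 3 with the replicate block and 3 without the filter on low counts. *Ropn1* was not called in those fits (edgeR adjusted p = 0.0675 and 0.0517). From day 22 to day 24 in WT it fell from 6 to 2 with the replicate block, and from day 24 to day 26 in KO it rose from 0 to 1 with DESeq2. The correlation of same-numbered libraries was 0.071 to 0.41 at day 20 (3 of 4 KO libraries correlated best with their own number), -0.46 to -0.025 at day 22 (0 of 4), 0.39 at day 24 and 0.42 at day 26. As not every pair was above 0.1 at days 20 and 22, the libraries were taken to share only a number. With the replicate block the adjusted p at day 20 was 0.0657 for *Odf3*, 0.0598 for *Ropn1* and 0.0826 for *Smcp*, with log2 fold changes of 5.38, 3.96 and 3.80, and *Odf4* from day 20 to day 26 in WT had 0.0894. Leaving out 1 library at a time gave 0 to 6 calls at day 20, 0 to 6 over the mean, 0 to 7 from day 22 to day 24 in WT, 0 to 8 from day 20 to day 22 in KO and 0 to 2 from day 24 to day 26 in KO.

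With the stage score as covariate the sign turned for *Odf2* (-0.091), *Fsip1* (-0.018) and *Smcp* (-0.18) at day 20, for *Ropn1* at day 22 (-0.015) and for *Ropn1* at day 26 (0.26). Leaving out single libraries turned the sign of uncalled values, which ranged from -0.057 to 0.14 for *Odf4* at day 20. At day 24 the ranges were -0.20 to 0.090 for *Odf2*, -0.23 to 0.14 for *Odf3*, -0.15 to 0.23 for *Akap3*, -0.27 to 0.12 for *Fsip1* and -0.16 to 0.47 for *Smcp*. At day 26 they were -0.12 to 0.33 for *Fsip1* and -0.20 to 0.0096 for *Ropn1*. The cause of these changes was not tested. At days 24 and 26 intervals spanned several log2 units for the steep genes. These groups had 2 libraries each, and the spread of each gene was estimated over all 8 groups, not from those days alone.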

Other observations

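The 9 genes together took 0.0264% to 0.0629% of the assigned counts in the WT libraries of day 20 and 0.0487% to 0.0817% in KO, and 0.302% to 0.303% in WT and 0.333% to 0.348% in KO at day 26. *Odf2* alone made up 63.7% to 83.7% of these counts in WT at day 20 and 39.7% to 42.5% at day 26. At day 20 the lowest WT value of each share, 0.0264% and 63.7%, was that of WT_d20_2. The other WT libraries of that day lay within the KO range for the share of the 9 genes.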
